A study of Mus musculus with 6 samples.

Results

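The genes described here encode the matrix metalloproteinases (Mmp), the Adamts proteases, which are secreted metalloproteinases carrying thrombospondin repeats, and the tissue inhibitors of metalloproteinases (Timp). They were taken by gene symbol alone, with no threshold on their values: every protein-coding mouse gene named Mmp, Adamts or Timp with a number. Of the 21374 genes in the deposited table, 42 were members (20 Mmp, 18 Adamts and 4 Timp genes). A mean normalised read count of at least 10 over the 6 libraries was reached by 35 of them, and the other 7 are given apart. The annotation holds 45 such genes; Adamts18, Mmp1b and Mmp21 were not analysed here.

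Bulk RNA sequencing was done on tumour-adjacent distal colon, from which the tumours themselves had been excised. Male C57BL/6 mice, wild type or Otud1-/-, had been injected with the colon carcinogen azoxymethane on day 0, when 6 weeks old. Both genotypes then drank 1.5% dextran sulfate sodium, an agent of chemical colitis, for 4 days in each of 3 cycles, with 14 days of water in each. Tissue from 18-week-old mice was collected on day 81, and the labels give 3 libraries for each genotype. Every library used here came from mice given both agents, so the comparison is of genotypes within injured, tumour-bearing colon. How the Otud1 allele was made is not given in the sources used here.

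Matrix metalloproteinases are zinc proteases that are made as inactive proenzymes and, once activated, cut collagens, elastin, basement membrane proteins, cytokines and other secreted enzymes. Adamts proteases trim procollagens, cut cartilage-type proteoglycans and process von Willebrand factor, and the Timps block the active sites of matrix metalloproteinases. In the colon these genes are known for tissue remodelling after injury, for leukocyte-borne elastase and gelatinase, and for matrilysin (Mmp7), which is made by Paneth cells of the small intestine and by intestinal tumour cells.

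Throughout, a library is named by its label (wild type 1 to 3, Otud1-/- 1 to 3), and a change is log2(normalised read count + 1) in Otud1-/- minus wild type by label, with limma's standard error (SE). A normalised read count is the number of reads of a gene over its library's size factor. The libraries held 15300937 to 19406407 reads assigned to genes. Otud1 reads went against the labels, with normalised read counts of 111, 45.1 and 48.9 in wild type 1 to 3 and 141, 150 and 208 in Otud1-/- 1 to 3 (change 1.37 ± 0.35, adjusted p = 0.0934, limma). The deleted part of Otud1 is not stated, so every direction below is between labels. On the first principal component of all genes (38.8% of the variance), wild type 1 to 3 stood at -86.5, -22.0 and -25.8. Otud1-/- 1 to 3 stood at 83.3, 28.2 and 22.7. This component parted the genotypes, and wild type 1 and Otud1-/- 1 were its opposite extremes. For several members the change is also given without wild type 1 and Otud1-/- 1. Leaving both out can shrink a change that runs along this component. Whether the libraries of a genotype are different mice is not stated, and a p-value here covers only their spread, which may be technical. In tissue RNA, fewer cells of a type and less RNA per cell cannot be told apart.

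The promoters of the members fell into 2 kinds by their letters. Of the secreted Mmp genes, 8 lie in a cluster on chromosome 9 (GRCm38, 7272514 to 7699585, a span of 427 kb) in the order Mmp13, Mmp12, Mmp3, Mmp10, Mmp8, Mmp27, Mmp20 and Mmp7. RefSeq promoters (GRCm38.p6, 250 bases before to 50 after the annotated start) were found for 28 of the 42 members, in 31 entries. They were searched on both strands for the AP-1 site TGANTCA, the ETS site AGGAAG and the TATA box TATAAA, and the AP-1 and TATA matches printed below do not overlap each other. AP-1 sites bind Fos and Jun proteins, and in textbook accounts they drive several Mmp genes after cytokine or growth factor signals. The shown stretches run from 130 bases before to 20 after the start, 5′ to 3′ on the gene's strand, with AP-1 and TATA matches in capitals. The first 5 are the cluster genes with both motifs and a mean of at least 10, and Timp2 is shown as a promoter without either.

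Mmp13, chr9:7272384-7272533, plus strand: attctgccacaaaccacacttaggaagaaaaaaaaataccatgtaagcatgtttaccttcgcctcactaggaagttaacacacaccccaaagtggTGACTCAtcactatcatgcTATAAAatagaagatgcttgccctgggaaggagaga
Mmp12, chr9:7347244-7347393, plus strand: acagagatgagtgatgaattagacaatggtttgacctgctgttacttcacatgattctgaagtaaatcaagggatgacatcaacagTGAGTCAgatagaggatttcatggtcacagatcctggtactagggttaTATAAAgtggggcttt
Mmp3, chr9:7445692-7445841, plus strand: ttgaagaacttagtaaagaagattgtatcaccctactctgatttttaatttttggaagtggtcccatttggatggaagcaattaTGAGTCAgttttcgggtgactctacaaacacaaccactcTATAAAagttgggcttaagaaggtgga
Mmp10, chr9:7502212-7502361, plus strand: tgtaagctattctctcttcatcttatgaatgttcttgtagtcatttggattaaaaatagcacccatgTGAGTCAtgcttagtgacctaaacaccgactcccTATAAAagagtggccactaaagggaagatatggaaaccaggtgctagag
Mmp7, chr9:7691960-7692109, plus strand: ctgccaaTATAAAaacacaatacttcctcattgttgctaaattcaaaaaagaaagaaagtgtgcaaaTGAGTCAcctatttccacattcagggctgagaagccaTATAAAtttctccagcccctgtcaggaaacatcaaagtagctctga
Timp2, chr11:118355392-118355541, minus strand: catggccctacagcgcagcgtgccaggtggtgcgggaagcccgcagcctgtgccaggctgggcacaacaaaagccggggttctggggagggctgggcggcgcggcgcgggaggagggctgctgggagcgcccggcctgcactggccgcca

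Counting the annotated start as position 1, the AP-1 match began at position -35 in Mmp13, -44 in Mmp12, -46 in Mmp3 and -63 in both Mmp10 and Mmp7. TATAAA began at -16 in Mmp13, -7 in Mmp3, -29 in Mmp10 and at both -123 and -26 in Mmp7. In Mmp12 it began at position 5, after the annotated start. The start used for Mmp10 is not the start of a transcript in the gene annotation, and Mmp12 and Mmp7 have another entry each without an AP-1 match. AP-1 matches were present in 6 of the 8 cluster genes (the 5 shown and Mmp20) and in 0 of the 20 other members with a promoter, against 7.81% of all 32851 RefSeq promoters of this length. TATAAA occurred in 7 of 8 cluster genes and in 1 of the 20 others, Adamts1, against 13.6% of all promoters. Both motifs together were found in 1.54% of all promoters. AGGAAG occurred in 5 of 8 cluster genes, 7 of the 20 others and 35.4% of all promoters. Base composition differed in the same way: the 10 cluster entries held 37.7% to 52.0% G and C (median 40.3%) and the 21 other entries 53.3% to 80.0% (median 64.7%), with a median of 52.7% over all promoters. AT-rich sequence holds TATAAA more often by its letters alone, and a match is a run of letters, not a measured binding site.

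**Figure D1:**
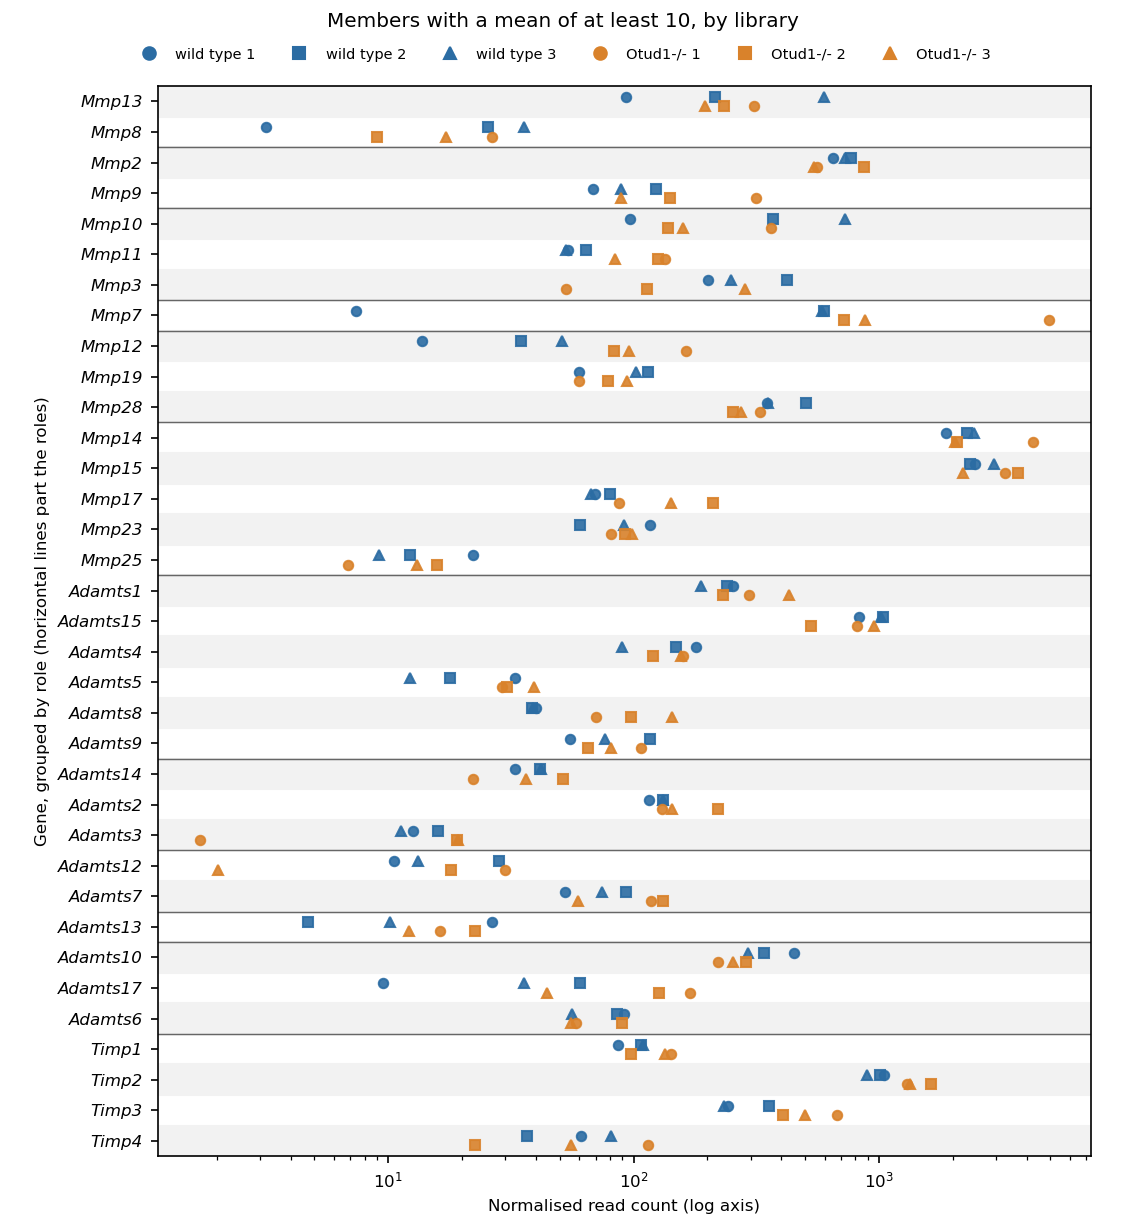
Normalised read counts (log axis) of the 35 members with a mean of at least 10, grouped by role, with 1 point per library; blue points are wild type and orange points Otud1-/- by label, and circle, square and triangle are libraries 1, 2 and 3. Mmp7 spans the widest range, from 7.38 in wild type 1 to 4924 in Otud1-/- 1, while Timp2 lies between 896 and 1633.

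Levels of different genes were set side by side per kb of exon, with all annotated exons of a gene joined. A gene whose transcripts use only part of these exons gets too low a level, which also limits the sums below. On this scale Mmp7 had the highest mean over the 6 libraries (1203 normalised reads per kb), ahead of the membrane-bound Mmp15 (523) and Mmp14 (419). Timp2 (309), the gelatinase Mmp2 (204) and the stromelysin Mmp10 (180) came next. Timp1 (127), Mmp3 (122), Mmp13 (102) and Mmp28 (88.7) followed. Adamts15 (83.2) and Adamts1 (51.5) led the Adamts genes. The level of Mmp7 ran from 6.91 normalised reads per kb in wild type 1 to 4610 in Otud1-/- 1, so its place did not exceed its spread over libraries. Mmp10 also spread several-fold within wild type, and its order beside Mmp2, Timp1, Mmp3 and Mmp13 was not resolved.

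No member passed the test between genotypes. limma called 0 of the 41 tested members at an adjusted p under 0.05, against 0.949% of all 21281 tested genes (0.282% higher and 0.667% lower), and the smallest adjusted p among members was 0.0718 (Adamts8). At an unadjusted p under 0.05 stood 10 of 41 members (24.4%; 7 with positive and 3 with negative changes), against 19.5% of all tested genes (9.5% positive and 9.97% negative). On the recovered reads, edgeR also called 0 of 35 members, against 0.143% of its genes called higher and 0.4% lower, with 9 members (25.7%) and 22.2% of its genes at an unadjusted p under 0.05. limma-voom called 0 of 35, with 8 members (22.9%) and 22.2% of its genes at an unadjusted p under 0.05. DESeq2 called 6 of the 35 members it gave an adjusted p, all higher in Otud1-/-, against 3.98% of the genes with an adjusted p from that tool called higher: Mmp12, Adamts8, Timp3, Mmp11, Timp2 and Mmp17. At an unadjusted p under 0.05 DESeq2 had 12 of 42 members (28.6%) and 18.4% of all genes.

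Among members with a mean of at least 10, the genotypes did not overlap in 9 of 35 (25.7%), against 29.9% of the 16587 tested genes of that abundance, so the share of separated members was near the background. In 7 of the 9 every Otud1-/- library lay above every wild type library (Timp2, Timp3, Adamts8, Mmp12, Mmp11, Mmp17 and Mmp7), and in Mmp28 and Adamts10 every one lay below; over all genes of that abundance these shares were 14.1% and 15.7%. The median change of the 35 members was 0.11 (22 positive, 13 negative), beside -0.0018 over all tested genes of that abundance. By family the median was 0.09 for the 16 Mmp genes, 0.11 for the 15 Adamts genes and 0.41 for the 4 Timp genes.

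The members varied more between libraries of 1 genotype than most genes. Their within-genotype SD of log2 values had a median of 0.45, beside 0.24 over all tested genes of that abundance, and it exceeded 1 in 6 of 35 members against 3.27% of all those genes. The spread was larger in the chromosome 9 cluster, where the median was 1.07 over 6 genes, against 0.40 over the 29 other members. Wild type 1 held the lowest value of 12 of the 35 members and Otud1-/- 1 the highest of 10. The same counts were not made over all genes, on whose first principal component these libraries were also the extremes. With both of these libraries left out, limma called Mmp17 (1.23, adjusted p = 0.0464) and Adamts8 (1.59, adjusted p = 0.0241) higher and Mmp10 (-1.81, adjusted p = 0.0293) lower, where 0.945% of all tested genes were called higher and 0.902% lower.

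**Figure D2:**
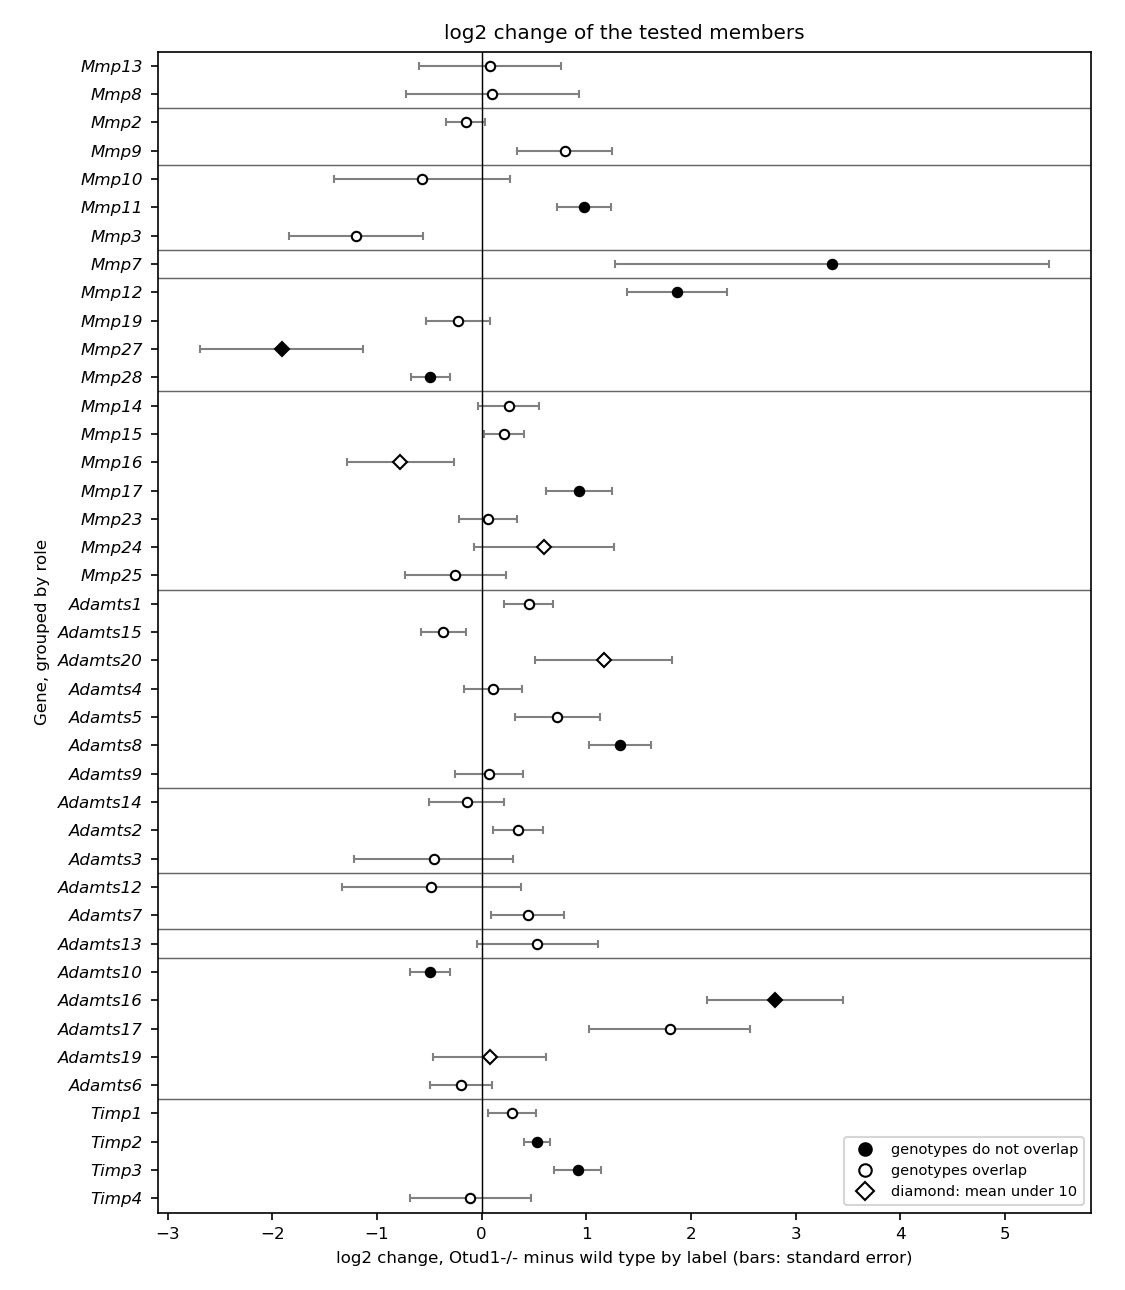
Change on the log2 scale (Otud1-/- minus wild type by label) of the 41 tested members, grouped by role, with bars for the standard error; filled symbols have genotypes that do not overlap and diamonds have a mean under 10. Mmp7 is farthest to the right at 3.35 with the widest bar, and Adamts8, Mmp12, Timp2 and Timp3 lie to the right of 0 with filled symbols.

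Collagenases cut the triple helix of fibrillar collagens. Mmp13 (collagenase-3, chromosome 9, 7272514 to 7283331) had normalised read counts of 92.8, 214 and 596 in wild type 1 to 3 and 308, 233 and 196 in Otud1-/- 1 to 3. All 3 Otud1-/- values lay inside the wild type range, and the change was 0.08 ± 0.68 (adjusted p = 0.965, limma). Mmp8, the collagenase stored by neutrophils (chromosome 9, 7558456 to 7568485), stood at 3.16, 25.4 and 35.7 in wild type and 26.5, 9.0 and 17.2 in Otud1-/-. Its change of 0.10 ± 0.83 (adjusted p = 0.962, limma) was far smaller than the spread between wild type libraries. The signs of both changes turned negative in all 3 fits of whole reads with edgeR and DESeq2 (-0.28 to -0.29 for Mmp13 and -0.26 to -0.28 for Mmp8).

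Stromelysins cut proteoglycans, laminin and non-helical collagen and activate other Mmp proenzymes. Mmp10 (stromelysin-2, chromosome 9, 7502352 to 7510240) had normalised read counts of 97, 371 and 730 in wild type and 364, 138 and 158 in Otud1-/-. Like Mmp13 and Mmp8, it was lowest in wild type 1, highest in wild type 3 and, among the Otud1-/- libraries, highest in Otud1-/- 1. Its change was -0.57 ± 0.84 (adjusted p = 0.76, limma), and leaving out 1 library moved it between -1.38 and 0.073. The call of Mmp10 without wild type 1 and Otud1-/- 1 rests on 371 and 730 against 138 and 158.

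Mmp3 (stromelysin-1, chromosome 9, 7445822 to 7455975) did not share this order. Its normalised read counts were 200, 421 and 250 in wild type and 52.9, 114 and 284 in Otud1-/-, so Otud1-/- 3 lay inside the wild type range while the other 2 lay below it. The change was -1.20 ± 0.64 (adjusted p = 0.364, limma). Mmp11 (stromelysin-3, chromosome 10, 75923222 to 75936496) is activated inside the cell by furin, is known from stroma around carcinomas, and lies outside the cluster. It stood at 53.8, 64.0 and 53.0 in wild type (56.9 ± 6.1 SD, n = 3) and 135, 126 and 83.8 in Otud1-/- (115 ± 27.3 SD, n = 3). Each Otud1-/- value exceeded each wild type value, with a change of 0.98 ± 0.26 (adjusted p = 0.101, limma; 0.0172, DESeq2). Over the 22 alternatives the change of Mmp11 ran from 0.77 to 1.34, and 2 of them called it. Mmp11 shares 155 exon bases with Chchd10 on the opposite strand, a more abundant gene with means of 2479 in wild type and 2100.5 in Otud1-/-, of the opposite order to Mmp11.

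**Figure D3:**
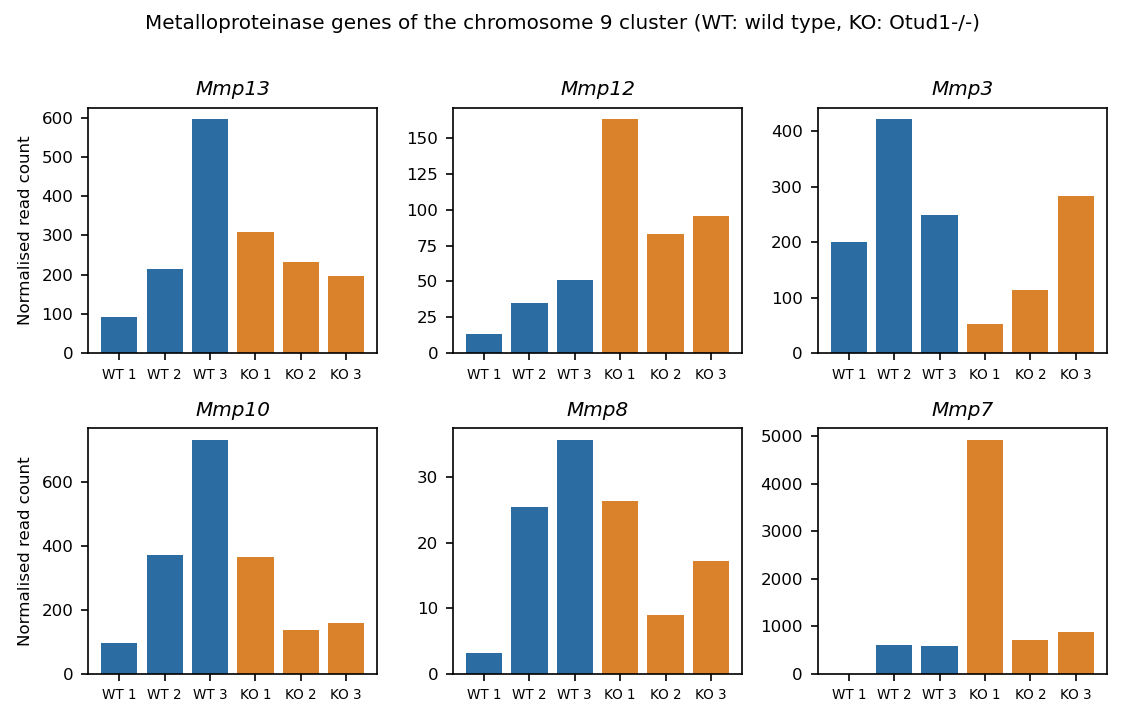
Normalised read counts (linear axes starting at 0, 1 scale per gene) of the 6 chromosome 9 cluster genes with a mean of at least 10, in order along the chromosome, with 1 bar per library. Mmp13, Mmp10 and Mmp8 are lowest in wild type 1 and highest in wild type 3, Mmp12 and Mmp7 are highest in Otud1-/- 1, and Mmp3 is lowest there.

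Mmp12, macrophage elastase, was the cluster gene with the most even separation of genotypes. Mmp12 (ENSMUSG00000049723.14, chromosome 9, 7344381 to 7369499) had normalised read counts of 13.7, 34.8 and 51.0 in wild type (33.2 ± 18.7 SD, n = 3) and 163, 83.2 and 95.9 in Otud1-/- (114 ± 42.9 SD, n = 3). The lowest Otud1-/- library lay above the highest wild type library. The change was 1.87 ± 0.48 with an adjusted p of 0.0969 (limma), and DESeq2 gave an adjusted p of 0.0044. Without wild type 1 and Otud1-/- 1 it was 1.07 (adjusted p = 0.14, limma). Mmp12 shares 157 exon bases with Mmp1b on the opposite strand, which was not analysed here.

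The markers of macrophages and monocytes, the cells known for Mmp12, had changes of the opposite sign. All 15 markers of that list had negative changes (median -0.75), with 0 called by limma. Of the 15, 9 did not overlap between genotypes, against 26.3% of all tested genes. Their summed normalised read counts were 15907 to 19542 in wild type and 10461 to 11478 in Otud1-/-. The summed list and Mmp12 separated the genotypes in opposite directions.

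Mmp7, matrilysin, lacks the hemopexin domain of most family members, and in mouse small intestine it activates the alpha-defensins of Paneth cells. It also counts among the known targets of Wnt signalling in intestinal tumours. Mmp7 (ENSMUSG00000018623.9, chromosome 9, 7692090 to 7699585) had normalised read counts of 7.38, 599 and 586 in wild type (398 ± 338 SD, n = 3) and 4924, 718 and 877 in Otud1-/- (2173 ± 2384 SD, n = 3). The genotypes did not overlap, but the range within them was wide, 81.1-fold in wild type and 6.86-fold in Otud1-/-. Wild type 1 held almost no Mmp7 and Otud1-/- 1 held the most.

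The change of Mmp7 was 3.35 ± 2.07 with an adjusted p of 0.448 (limma). Without wild type 1 and Otud1-/- 1 it was 0.42 (adjusted p = 0.244, limma), and without wild type 1 alone it was 1.30. The marker sums of 2 cell states had the same lowest and highest libraries. The 12 Wnt target and tumour cell markers, among them Axin2, Lgr5 and Notum, summed to 1064, 5702 and 4613 in wild type and 29890, 11167 and 7583 in Otud1-/-. All 12 had positive changes (median 2.30) and limma called 0. In 11 every Otud1-/- value lay above wild type, against 14.1% of tested genes with a mean of at least 10.

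The 8 Paneth cell markers, which include Lyz1 and defensins, summed to 1358, 2297 and 2410 in wild type and 16644, 6698 and 6537 in Otud1-/-. All 8 had positive changes (median 2.41), with 0 called by limma and with Defa17, Defa30 and Mptx2 at 0 in at least 1 library. In 4 of the 8 every Otud1-/- value lay above wild type, against 2770 of all 21281 tested genes. Lyz1 held 9550 of the sum in Otud1-/- 1. Ang4 had another order, at 739, 179 and 170 in wild type and 713, 3178 and 1251 in Otud1-/-. Both sums, like Mmp7, were lowest in wild type 1 and highest in Otud1-/- 1. Their part in the Mmp7 result was not tested.

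**Figure D4:**
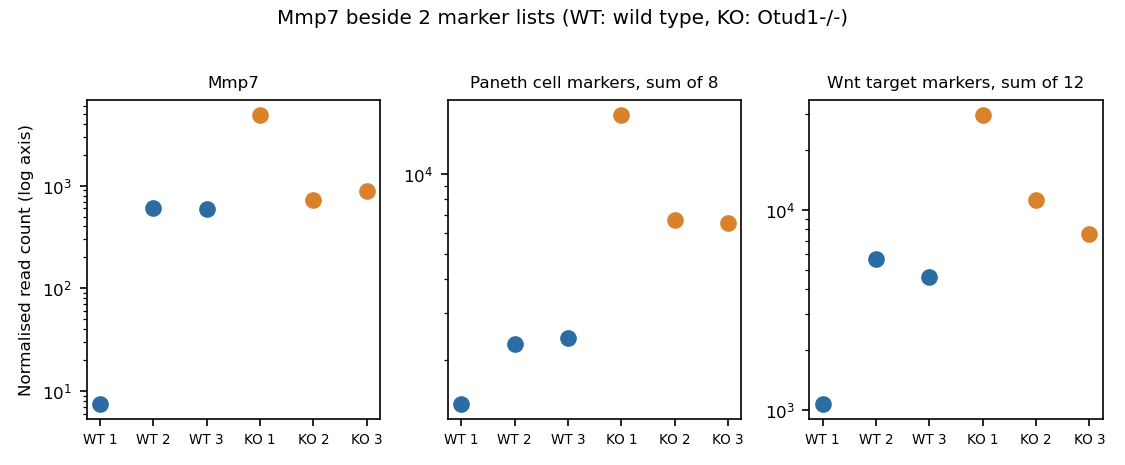
Normalised read count of Mmp7 and the summed normalised read counts of the 8 Paneth cell markers and the 12 Wnt target and tumour cell markers (log axes), with 1 point per library. All 3 panels have their lowest point in wild type 1 (7.38, 1358 and 1064) and their highest in Otud1-/- 1 (4924, 16644 and 29890).

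Of the gelatinases, which digest denatured collagen and basement membrane, the stromal enzyme Mmp2 was the more even. Mmp2 (chromosome 8, 92827291 to 92853420) had normalised read counts of 647, 771 and 730 in wild type and 559, 872 and 545 in Otud1-/-, with overlapping groups and a change of -0.15 ± 0.18 (adjusted p = 0.697, limma). Its sign turned (0.057) when libraries were scaled to total reads. Mmp9, the gelatinase of neutrophils and macrophages (chromosome 2, 164940780 to 164955850), stood at 68.6, 123 and 88.7 in wild type and 316, 141 and 88.8 in Otud1-/-. Only Otud1-/- 1 and 2 exceeded the wild type range, and the change was 0.79 ± 0.45 (adjusted p = 0.378, limma), or 0.10 without wild type 1 and Otud1-/- 1.

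Neutrophil markers are given beside Mmp9 and Mmp8. The 10 tested markers of 12 listed (Mpo and Elane were not analysed here) summed to 7513 to 10482 in wild type and 3127 to 3866 in Otud1-/-. Ly6g, a neutrophil surface protein, fell by 1.66 ± 0.18 (adjusted p = 0.00857, limma) and was the only one called; the call was lost without wild type 2 or 3 (adjusted p up to 0.0693, limma). Ly6g made up most of the summed list, with 6276, 7096 and 8638 in wild type and 1804, 2392 and 2845 in Otud1-/-. Without it the other 9 summed to 1237, 2539 and 1845 in wild type and 1487, 736 and 1021 in Otud1-/-, which overlap. Of these 9, 4 had positive and 5 negative changes: in Retnlg and Ngp every Otud1-/- value lay above wild type, in S100a8 and Csf3r every one lay below, and none of the 9 was called by limma. Camp and Ngp were at 0 in some libraries. The background over all tested genes was 26.3% not overlapping in either direction and 0.949% called by limma. The part of these cells in the Mmp8 and Mmp9 values was not tested.

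The remaining secreted Mmps with a mean of at least 10 were Mmp19 and Mmp28. Mmp28, epilysin, is known from epithelia (chromosome 11, 83440768 to 83463071). It had normalised read counts of 351, 505 and 354 in wild type (403 ± 88.1 SD, n = 3) and 326, 253 and 273 in Otud1-/- (284 ± 37.6 SD, n = 3). All Otud1-/- values were below all wild type values, with a change of -0.49 ± 0.19 (adjusted p = 0.198, limma). The 15 epithelium markers had a median change of -0.56 (13 negative, 0 called by limma). Their sums were 492156 to 585038 in wild type and 314384 to 469349 in Otud1-/-. Scaled to that list, the change of Mmp28 was -0.12. That scale moves all genes of a library alike, and the median of all genes with a mean of at least 10 became 0.37. It therefore cannot show what part the list has in the Mmp28 result, which was not tested. Mmp19 stood at 60.1 to 115 in wild type and 59.7 to 93.9 in Otud1-/- (change -0.22, adjusted p = 0.735, limma).

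Membrane-bound Mmps act at the cell surface, and Mmp14 (MT1-MMP), the best known of them, activates the Mmp2 proenzyme with Timp2 as its docking partner. Mmp14 (chromosome 14, 54431612 to 54445364) had normalised read counts of 1876, 2294 and 2443 in wild type and 4243, 2077 and 2039 in Otud1-/-. Otud1-/- 1 alone stood above the wild type range. The change was 0.26 ± 0.29 (adjusted p = 0.678, limma), and -0.20 without wild type 1 and Otud1-/- 1.

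Mmp15 (MT2-MMP, chromosome 8, 95352268 to 95375080) stood at 2469, 2358 and 2932 in wild type and 3277, 3700 and 2210 in Otud1-/-. The groups overlapped through Otud1-/- 3, and the change was 0.22 ± 0.19 (adjusted p = 0.566, limma). Mmp17, which is held in the membrane by a lipid anchor (chromosome 5, 129584169 to 129611099), had normalised read counts of 69.6, 79.9 and 67.3 in wild type (72.3 ± 6.73 SD, n = 3) and 87.0, 211 and 142 in Otud1-/- (147 ± 62.4 SD, n = 3). Its groups did not overlap, and the change of 0.93 ± 0.32 had an adjusted p of 0.162 (limma). Leaving out Otud1-/- 1 gave 1.26 (adjusted p = 0.0486, limma), and Mmp17 was called under 4 of the 22 alternatives. Mmp23 (0.06) and Mmp25 (-0.25), the other membrane-bound members with a mean of at least 10, overlapped between genotypes.

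Of the 15 Adamts genes with a mean of at least 10, the genotypes overlapped in all but Adamts8 and Adamts10. Of the proteoglycan-cleaving members, Adamts8 is an inhibitor of vessel growth in cell assays (ENSMUSG00000031994.13, chromosome 9, 30942562 to 30963838). It had normalised read counts of 40.1, 38.6 and 38.7 in wild type (39.1 ± 0.83 SD, n = 3) and 70.0, 97.9 and 143 in Otud1-/- (104 ± 37.0 SD, n = 3). The wild type libraries were nearly equal and every Otud1-/- library lay above them. The change was 1.32 ± 0.30 with an adjusted p of 0.0718, the smallest of any member with limma. Its adjusted p was 0.00313 with DESeq2 and 0.0807 with edgeR. Adamts8 was called under 6 of the 22 alternatives and not under the other 16. Of the fits without 1 library, only that without Otud1-/- 1 called it. With limma it passed under sample weights (adjusted p = 0.0236, where 1.03% of all genes were called higher), without Otud1-/- 1 (0.0301; 0.677%), with libraries scaled to total reads (0.0385; 1.47%) and with the epithelium markers as the scale (0.00188; 6.39%). Timp2 also passed under both scalings (adjusted p = 0.0256 and 0.00978, limma), and scaling to the epithelium list brought 5 further members past the threshold: Mmp12, Timp3, Adamts16, Mmp11 and Mmp17.

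Its nearest family member on the chromosome, 20.1 kb away, did not follow it. Adamts15 (chromosome 9, 30899155 to 30922452) had normalised read counts of 830, 1035 and 1018 in wild type and 816, 526 and 951 in Otud1-/-. The groups overlapped and the change was -0.37 ± 0.21 (adjusted p = 0.381, limma), of the opposite sign to Adamts8. The difference between these neighbours was not tested. Adamts8 shares 489 exon bases with Gm29724 on the opposite strand, whose mean was 2.64 in wild type and 1.37 in Otud1-/-.

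Adamts1 and Adamts5, aggrecanases and versicanases that lie 53.1 kb apart on chromosome 16, had changes of the same sign. Adamts1 (85793827 to 85803113) stood at 254, 240 and 189 in wild type and 294, 232 and 430 in Otud1-/- (change 0.45 ± 0.24, adjusted p = 0.335, limma). Adamts5 stood at 32.7, 17.9 and 12.2 in wild type and 29.0, 30.4 and 39.4 in Otud1-/- (0.72 ± 0.40, adjusted p = 0.358, limma). Both overlapped between genotypes. Adamts4 (0.11) and Adamts9 (0.07) also overlapped between genotypes. Their signs turned (-0.036 and -0.097) after quantile normalisation. On the opposite strand Adamts9 shares 1381 exon bases with A730049H05Rik (means of 2.92 in wild type and 3.93 in Otud1-/-).

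The procollagen N-propeptidases, which trim procollagens before fibrils form, did not separate. Adamts2 had normalised read counts of 115, 132 and 132 in wild type (126 ± 9.6 SD, n = 3) and 131, 222 and 143 in Otud1-/- (165 ± 49.3 SD, n = 3). The change was 0.35 ± 0.24 (adjusted p = 0.448, limma). The change was -0.14 for Adamts14 and -0.46 for Adamts3, whose normalised read count was 1.71 in Otud1-/- 1 beside 19.1 and 19.2 in the other Otud1-/- libraries. The Comp-cleaving Adamts7 (0.44 ± 0.35, adjusted p = 0.521, limma) and Adamts12 (-0.48) and the von Willebrand factor-cleaving Adamts13 (0.53 ± 0.58, adjusted p = 0.655, limma) overlapped as well.

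Adamts10, which binds fibrillin microfibrils (chromosome 17, 33524204 to 33553782), was the only Adamts gene with a mean of at least 10 whose Otud1-/- values all lay below wild type. It had normalised read counts of 450, 340 and 294 in wild type (361 ± 80.6 SD, n = 3) and 221, 286 and 254 in Otud1-/- (254 ± 32.4 SD, n = 3), with a change of -0.49 ± 0.19 (adjusted p = 0.209, limma). Scaled to the epithelium list, the change of Adamts10 was -0.12, where the median of all genes with a mean of at least 10 was 0.37. Adamts17 (chromosome 7, 66839735 to 67153171) had the largest Adamts change above a mean of 10, at 9.49, 60.2 and 35.7 against 169, 127 and 44.4. Otud1-/- 3 lay below wild type 2, and the change of 1.80 ± 0.77 (adjusted p = 0.265, limma) was 0.69 without wild type 1 and Otud1-/- 1. Adamts6 (-0.20, adjusted p = 0.759, limma) overlapped.

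Timp2 and Timp3 separated the genotypes and Timp1 and Timp4 did not. Timp2 (ENSMUSG00000017466.9, chromosome 11, 118301069 to 118355740), the inhibitor that also takes part in Mmp2 activation, had normalised read counts of 1044, 1014 and 896 in wild type (985 ± 78.1 SD, n = 3) and 1307, 1633 and 1340 in Otud1-/- (1427 ± 180 SD, n = 3). All Otud1-/- values lay above all wild type values, with a change of 0.53 ± 0.13 (adjusted p = 0.0803, limma; 0.0225, DESeq2). Timp3, which binds to the matrix and also inhibits Adam17 (ENSMUSG00000020044.13, chromosome 10, 86300372 to 86349506), stood at 242, 356 and 232 in wild type (277 ± 68.6 SD, n = 3). In Otud1-/- it stood at 672, 405 and 498 (525 ± 136 SD, n = 3).

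The genotypes did not overlap for Timp3, and the change was 0.92 ± 0.23 (adjusted p = 0.0874, limma; 0.011, DESeq2). Over the 22 alternatives the change of Timp3 ran from 0.64 to 1.29, and 2 of them called it. Timp3 lies across Syn3 and shares 1733 exon bases with it on the opposite strand; Syn3 had a mean of 13.3 in wild type and 26.1 in Otud1-/-. Timp1, the inhibitor most tied to inflammation (chromosome X, 20870166 to 20874735), had normalised read counts of 86.5, 107 and 109 in wild type and 142, 97.9 and 134 in Otud1-/-. Otud1-/- 2 lay inside the wild type range, and the change was 0.29 ± 0.23 (adjusted p = 0.521, limma). Timp4 (chromosome 6, 115241892 to 115252205) stood at 61.2, 36.7 and 80.6 against 114, 22.5 and 55.5, with a change of -0.11 ± 0.57 (adjusted p = 0.942, limma).

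Smooth muscle markers separated the genotypes in the same direction as Timp2, Timp3 and Adamts8. Of the 15 markers, 14 had positive changes (median 1.12) and did not overlap between genotypes. Among tested genes with a mean of at least 10, 14.1% lay wholly higher in Otud1-/-. Against 0.282% of all tested genes, limma called 5 of the markers higher: Cald1, Myh11, Myl9, Synm and Tpm2. These 5 calls were lost without wild type 1, 2 or 3 or Otud1-/- 3, and those of Cald1 and Myh11 also without Otud1-/- 2 (adjusted p up to 0.182, limma). The 15 markers summed to 46200 to 50410 normalised reads in wild type and to 75712, 151565 and 112064 in Otud1-/- 1 to 3. Of the Otud1-/- libraries, Otud1-/- 1 was lowest in this sum, in Timp2 and in Adamts8, and highest in Timp3. The fibroblast list (12 markers, 7 positive, median 0.02, 0 called by limma) summed to 7980 to 9231 in wild type and 6379 to 10938 in Otud1-/-. The endothelium list (10 markers, 8 positive, median 0.29, 0 called by limma) summed to 1919 to 2529 and 2129 to 3114. The part of these lists in the Timp and Adamts8 results was not tested.

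Summed per kb, the 4 Timps reached 405, 431 and 395 normalised reads in wild type (410 ± 18.4 SD, n = 3) and 597, 583 and 566 in Otud1-/- (582 ± 15.6 SD, n = 3). The sums were tight within each genotype and did not overlap, although the single Timps varied more; Timp2 made up 58.2% to 66.1% of the sum in wild type and 56.2% to 71.9% in Otud1-/-. The 13 secreted Mmps summed to 551, 1558 and 1738 in wild type and 5407, 1349 and 1479 in Otud1-/-, and Mmp7 made up 1.25% of that sum in wild type 1 and 85.3% in Otud1-/- 1. Without Mmp7 the sums were 544, 997 and 1189 in wild type (910 ± 331 SD, n = 3) and 796, 677 and 658 in Otud1-/- (710 ± 74.8 SD, n = 3).

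These sums of secreted Mmps overlapped between genotypes. The ratio of secreted Mmps without Mmp7 to Timps, both per kb, was 1.34, 2.32 and 3.01 in wild type and 1.33, 1.16 and 1.16 in Otud1-/-. Wild type 1 was close to the Otud1-/- libraries in this ratio and the other wild type libraries were above it. With Mmp7 included the ratio was 1.36, 3.62 and 4.40 in wild type and 9.06, 2.31 and 2.61 in Otud1-/-, so the order of the libraries depended on whether Mmp7 was counted. Membrane-bound Mmps summed to 839, 865 and 1006 in wild type and 1372, 1110 and 820 in Otud1-/-. Adamts genes summed to 254 to 298 in wild type and 277 to 330 in Otud1-/-. Both of these sums overlapped between genotypes. No test was made on the sums.

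**Figure D5:**
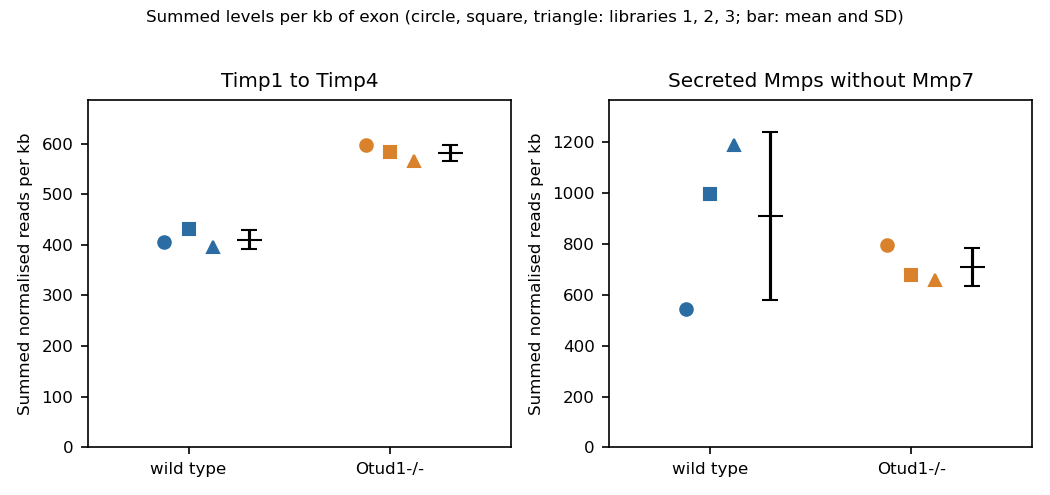
Summed normalised reads per kb of exon of Timp1 to Timp4 and of the 12 secreted Mmps other than Mmp7 (linear axes from 0), with 1 point per library and the mean and SD beside them. The Timp sums are 395 to 431 in wild type and 566 to 597 in Otud1-/-; the secreted Mmp sums overlap, with wild type spread from 544 to 1189.

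The 7 members with a mean under 10 were Adamts16, Adamts19, Adamts20, Mmp16, Mmp20, Mmp24 and Mmp27. Adamts16, which is known from kidney and gonad, had 0, 2 and 0 reads in wild type and 13, 8 and 7 in Otud1-/-. The ratio of normalised reads was 13.7 (exact 95% interval 3.46 to 119, counting error only), and the change was 2.80 ± 0.65 (adjusted p = 0.0758, limma). Mmp27 had 1, 8 and 2 reads in wild type and 0 in each Otud1-/- library, at least 3.74-fold lower against a floor of 3 reads over the group (adjusted p = 0.222, limma). Mmp20, enamelysin of tooth enamel, had 0 reads in each wild type library and 9, 0 and 3 in Otud1-/-, at least 3.92-fold higher against the same floor, and was left out of the test by its low values. Adamts20 (1.17, adjusted p = 0.359, limma), Mmp16 (-0.78), Mmp24 (0.60) and Adamts19 (0.08) overlapped between genotypes.

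Among other genes of the same pathways, limma called 1 matrix substrate and 1 inducer. Of 20 tested matrix substrates, 14 had positive changes (median 0.25, beside 0.02 over all tested genes) and limma called 1. Every Otud1-/- value lay above wild type in 6 of the 20 and below it in 0. Of all tested genes, 26.3% did not overlap in either direction and limma called 0.949%. Fn1, fibronectin, rose from 3207, 4732 and 4558 in wild type to 9379, 9210 and 7363 in Otud1-/- (1.07 ± 0.17, adjusted p = 0.0349, limma). The call of Fn1 was lost without wild type 1, 2 or 3 (adjusted p up to 0.146, limma). The next by p were Eln, elastin, the substrate of Mmp12 (0.91, adjusted p = 0.0982), and the basement membrane collagens Col4a1 (0.54, adjusted p = 0.114) and Col4a2 (0.53, adjusted p = 0.121), which did not pass.

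Of 18 inducers of Mmp transcription (cytokines and AP-1 and ETS factors), 13 had negative changes (median -0.17) and limma called 1. The Otud1-/- values lay wholly above wild type in 2 of the 18 and wholly below in 3. Over all tested genes, 26.3% did not overlap in either direction and 0.949% were called by limma. Il1b, a cytokine known to induce Mmp1, Mmp3 and Mmp13 genes, fell from 719, 858 and 738 in wild type to 497, 394 and 433 in Otud1-/- (-0.81 ± 0.14, adjusted p = 0.038, limma). The call of Il1b was lost without wild type 1, 2 or 3 or Otud1-/- 3 (adjusted p up to 0.162, limma). Junb, an AP-1 subunit, stood next at -0.59 (adjusted p = 0.0801), followed by the ETS factors Etv4 (0.77) and Etv5 (1.65), all short of the threshold.

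No gene was called by limma in the 4 remaining lists. Of the 12 genes of plasminogen activation and proprotein convertases, which activate Mmp proenzymes, 6 had positive and 6 negative changes (median 0.01), with Serpinb5 (-0.38) and Serpine2 (0.62) first by p. The 11 other inhibitors and Adamts-like proteins had a median of -0.03, with Adamtsl3, a catalytically inactive relative, at 9.49, 11.3 and 14.3 in wild type and 23.9, 27.0 and 44.4 in Otud1-/- (1.34, adjusted p = 0.114, limma). The 12 tested genes for other matrix and shedding metalloproteinases had a median of -0.08, with the sheddase Adam17 at -0.36 (adjusted p = 0.132), the procollagen C-proteinase Bmp1 at 0.59 (adjusted p = 0.15) and the brush border meprin subunit Mep1b at -1.31 (adjusted p = 0.196). The 8 receptors and partners, such as Bsg and Cd44, split evenly (median 0.04).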

How the data were processed

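Genome build mm10 is named in the submitters' processing notes. The aligner, counter, strand setting and annotation are, for this table, not given in the sources used here. If strand was not used, reads in the shared bases of members that overlap exons of a gene on the opposite strand (12 of 42) could belong to either gene. The authors deposited 1 normalised signal value per gene and library: in each column they were whole multiples of 1 step (within 0.001 of a read), which gave whole reads for 100% of values, and the steps were the reciprocals of median-of-ratios size factors. Every gene in the table had at least 10 reads over the 6 libraries. Symbols, coordinates and exon lengths came from GENCODE vM21 (GRCm38): 21336 of 21374 IDs matched, 18829 with the same version.

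In all, 21281 genes passed the filter (a value of 1 or more in 3 or more libraries) and entered limma 3.58.1 (R 4.3.3; trend and robust) on log2(value + 1), which understates changes of low genes. Genotype was the only term, tests were two-sided, and Benjamini-Hochberg adjustment covered all tested genes, with calls at an adjusted p under 0.05. Alternatives were other filters, pseudocounts and scalings, edgeR 4.0.16, DESeq2 1.42.0 and limma-voom on the recovered reads, sample weights, a replicate block, each library left out, and wild type 1 and Otud1-/- 1 left out together. The limma script was checked on simulated data.

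The members and lists (roles, pathways, markers) were chosen with earlier results of these data known. Values in every library were to be given for called members, for members with a mean of at least 10, no overlap and a log2 change of at least 1 in size, for the Timps and for the 6 highest per kb; of each list, the called genes and up to 4 with the smallest p. Other members given in full were chosen after their values were seen. Protein motifs were not searched here.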

Additional observations from a re-analysis of the deposited data

How the results depend on the processing

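No member was called under the deposited scaling with limma, with no filter (204 genes called in all) or after renewed scaling (202) or quantile normalisation (153). The total was 122 genes with a filter at a mean of 5, 118 and 110 with pseudocounts of 0.1 and 0.01, 0 without trend and robust (8 of 41 members, 19.5%, and 16.4% of all genes at an unadjusted p under 0.05), 91 and 93 with edgeR under TMM and median-of-ratios factors and 58 with limma-voom, again with 0 members. Members called higher numbered 2 of 416 genes called after scaling to total reads, 7 of 1506 after scaling to the epithelium list, 1 of 564 with sample weights, 6 of 1412 with DESeq2, and 2 of 393 without wild type 1 and Otud1-/- 1, where 1 member was called lower. Leaving out 1 library gave 10 to 351 genes, and 0 to 2 members higher (2 without Otud1-/- 1). Of all calls 70.3% were lower, but 24.8% with total reads and 9.69% with the epithelium list as the scale (60.1% with quantiles). These 2 scales shifted the median of all genes with a mean of at least 10 by 0.20 and 0.37, and under the epithelium scale the members' median became 0.48.

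With the replicate number as a block, 18 genes and 0 members were called. Same-numbered libraries deviated with correlations of -0.26, -0.10 and -0.09, so the numbers share no pairing that these data show, and wild type 1 did not correlate best with Otud1-/- 1.

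Of the 41 tested members, 22 kept their sign under every alternative that gave them a value. Scaling to total reads turned Adamts14 to 0.062, Adamts6 to 0.0071, Mmp2 to 0.057 and Timp4 to 0.099; scaling to the epithelium list gave Adamts14 0.22, Adamts15 0.0056, Adamts6 0.17, Mmp19 0.15, Mmp2 0.22, Mmp25 0.086 and Timp4 0.26. Quantile normalisation gave Adamts19 -0.17, Adamts4 -0.036, Adamts9 -0.097, Mmp23 -0.085 and Mmp8 -0.083, and sample weights gave Adamts9 -0.038 and Mmp13 -0.054. edgeR with TMM gave Mmp13 -0.28, Mmp8 -0.26 and Timp4 0.13, with median-of-ratios factors -0.28, -0.26 and 0.13, and DESeq2 -0.29, -0.28 and 0.12. Without wild type 1 and Otud1-/- 1, Adamts14 was 0.059, Adamts3 0.48, Adamts6 0.029, Adamts9 -0.38, Mmp13 -0.74, Mmp14 -0.20, Mmp24 -0.34, Mmp25 0.41 and Mmp8 -1.21. Leaving out 1 library turned the sign of Adamts12 (-1.16 to 0.52), Adamts13 (-0.0055 to 1.13), Adamts14 (-0.42 to 0.17), Adamts19 (-0.092 to 0.36), Adamts3 (-0.94 to 0.51), Adamts4 (-0.18 to 0.32), Adamts9 (-0.19 to 0.35), Mmp10 (-1.38 to 0.073), Mmp13 (-0.57 to 0.77), Mmp14 (-0.090 to 0.44), Mmp23 (-0.19 to 0.28), Mmp25 (-0.51 to 0.082), Mmp8 (-0.87 to 0.70) and Timp4 (-0.66 to 0.49). The cause of these shifts was not tested. At 15300937 to 19406407 reads a library, the 7 members with a mean under 10 were limited by counting error.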
